A study of Arabidopsis thaliana with 12 samples.

Results

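VAL1 and VAL2 binding was compared across the genome of Arabidopsis seedlings from 3 peak lists of chromatin immunoprecipitation followed by sequencing (ChIP-seq), out of the 12 samples of the series. VAL1-GFP was expressed in the val1 mutant (2 replicates) and VAL2-GFP in the val2 mutant (1 list used), so each line carried the tagged protein in place of its own endogenous one and kept the other VAL protein untagged. Both lines were in the Col-0 ecotype, and both fusions were precipitated with the same GFP antibody from 14-day-old seedlings. The seedlings were stratified for 3 days and raised on plates at 22 °C with 16 h of light a day. Lists of a histone mark in untransformed Col-0 wild type of the same age are also used below. The sources used here do not give the promoter behind each fusion, the number of independent lines or how plants were pooled, and whole seedlings mix many cell types. The second VAL2-GFP list was not analysed here, and nothing says that the VAL1-GFP replicates came from separate plants. A VAL1 site was an interval covered by a peak in both VAL1-GFP lists, which gave 12796 sites, and they were set against the 20275 peaks of the VAL2-GFP list. Exact permutation of 2 lists and 1 gives a two-sided p of 0.333 at the least, so every comparison is given as values, and the gap between the 2 VAL1-GFP lists serves as the measure of replicate error.

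VAL1 (annotated as HSI2) and VAL2 (HSL1) are plant repressors of transcription whose B3 domain recognises the RY element, a sequence with TGCATG at its core. They are known for silencing the seed maturation programme in seedlings, in part through Polycomb repressive complexes and their histone mark, trimethylated lysine 27 of histone H3 (H3K27me3). The 2 proteins overlap in function, and the single mutants are known to be milder than the double mutant.

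The sequences below are examples from under the peaks that carry the comparison. Each is 46 bases of the plus strand of the TAIR10.1 RefSeq genome near a summit, the position of highest coverage in a peak. Capitals mark the RY core, TGCATG read on either strand, in the first 3 sets and the G-box CACGTG in the last. Sites without a core are not printed in these 3 sets, so the sets do not measure how common it was. The first set comes from the strongest sites of both factors, of which 6 of 10 held a core. In those printed, RY cores stood singly or run together.
Site on chromosome 1 at 12706852 (chr1:12706825-12706870): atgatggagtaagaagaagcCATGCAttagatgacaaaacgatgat
Site on chromosome 2 at 16820854 (chr2:16820831-16820876): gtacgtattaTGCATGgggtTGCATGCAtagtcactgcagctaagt
NAC074, intron (chr4:14091387-14091432): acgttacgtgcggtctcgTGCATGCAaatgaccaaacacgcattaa
CKX5, intron (chr1:28315952-28315997): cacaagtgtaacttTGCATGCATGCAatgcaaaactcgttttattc
Site on chromosome 3 at 9419585 (chr3:9419558-9419603): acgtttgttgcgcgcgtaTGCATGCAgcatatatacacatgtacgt

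The second set was strong in both VAL1-GFP lists with a weak VAL2-GFP peak.
Site on chromosome 1 at 25221915 (chr1:25221890-25221935): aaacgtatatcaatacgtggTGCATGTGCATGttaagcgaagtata
AT5G41780, intron (chr5:16722884-16722929): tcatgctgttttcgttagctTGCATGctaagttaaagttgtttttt
LEA, upstream (chr2:9207150-9207195): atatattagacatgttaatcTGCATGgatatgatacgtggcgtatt
AT2G16730, upstream (chr2:7266952-7266997): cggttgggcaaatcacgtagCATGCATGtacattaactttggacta

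The third set had peaks in both VAL1-GFP lists and no VAL2-GFP peak of any strength.
AT1G20940, upstream (chr1:7297191-7297236): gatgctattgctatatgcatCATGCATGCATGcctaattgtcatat
AT1G17010, intron and coding exon (chr1:5818383-5818428): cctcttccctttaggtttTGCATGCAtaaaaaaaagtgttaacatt

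The last set had a strong VAL2-GFP peak and no strong VAL1-GFP peak. It was picked among such peaks because it holds a G-box, the word recognised by many basic helix-loop-helix and basic leucine zipper factors. The set thus illustrates the sequence and does not measure how common it was. Its site on chromosome 3 at 12453996 also has an RY core, 48 bp from the summit and outside the stretch printed.
ARA-2, upstream (chr1:1953729-1953774): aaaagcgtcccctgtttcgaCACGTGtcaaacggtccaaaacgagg
ECA4, upstream (chr1:2374894-2374939): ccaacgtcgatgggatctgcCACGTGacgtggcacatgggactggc
AT3G26395, coding exon (chr3:9666181-9666226): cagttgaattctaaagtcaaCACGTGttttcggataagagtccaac
Site on chromosome 3 at 12453996 (chr3:12453934-12453979): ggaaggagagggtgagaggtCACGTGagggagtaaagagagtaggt

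The lists differed in size and in how far they reached down. VAL1-GFP held 16637 peaks with 21580 summits in replicate 1 and 23773 peaks with 34554 summits in replicate 2, against 20275 peaks with 30493 summits for VAL2-GFP. The peaks covered 6.66% and 12.2% of the genome for VAL1-GFP and 10.6% for VAL2-GFP. A q of 0.01 or less was reached by 29.7% and 52.0% of VAL1-GFP summits and by 54.4% of VAL2-GFP summits, and a −log10 q of at least 10, called strong here, by 1292, 3036 and 2954 summits in the same order. The first VAL1-GFP list thus stood apart from the other 2 in the share of weak summits. The lists hold no read totals, so depth is unknown. Pileup, the authors' read coverage at a summit, and fold enrichment over the local background that the peak caller estimated are given as deposited. Values of different lists stand side by side below as a description, and direction between the factors is read from ranks within each list.

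In the presence of peaks, the gap between the factors was of the size of the gap between the VAL1-GFP replicates. Of the 12796 VAL1 sites, 9493 (74.2%, exact binomial interval 73.4% to 74.9%) were overlapped by a VAL2-GFP peak and 3303 were not. Of the 20275 VAL2-GFP peaks, 8878 (43.8%) lay at a VAL1 site, 7233 (35.7%) over a peak of 1 VAL1-GFP list and 4164 (20.5%) over none. A VAL1 site needs both lists and a VAL2-GFP peak only 1, so these shares are not symmetric. Between single lists, 67.2% of the VAL1-GFP replicate 2 peaks were found in VAL2-GFP and 48.4% in VAL1-GFP replicate 1. For VAL1-GFP replicate 1 the order was the other way, with 59.6% found in VAL2-GFP and 74.9% in VAL1-GFP replicate 2. The intervals cover counting error only, and neighbouring peaks are not independent.

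Peaks missing from the other factor were weak and short. VAL1 sites without VAL2-GFP had a median length of 251 bp, and those with it 415 bp. In VAL1-GFP replicate 2, peaks shared with replicate 1 but not with VAL2-GFP stood at a median pileup percentile of 42.3 within the list, against 78.4 for those found in all 3 lists. VAL2-GFP peaks over no VAL1-GFP peak stood at a median percentile of 28.5, against 67.4 for those at VAL1 sites. Of the lowest 20% of VAL1-GFP replicate 2 peaks by pileup 41.1% had a VAL2-GFP peak, and of the top 20% it was 94.1%. Of the lowest 20% of VAL2-GFP peaks 57.7% had a peak in VAL1-GFP replicate 2, and of the top 20% it was 96.4%.

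**Figure D1:**
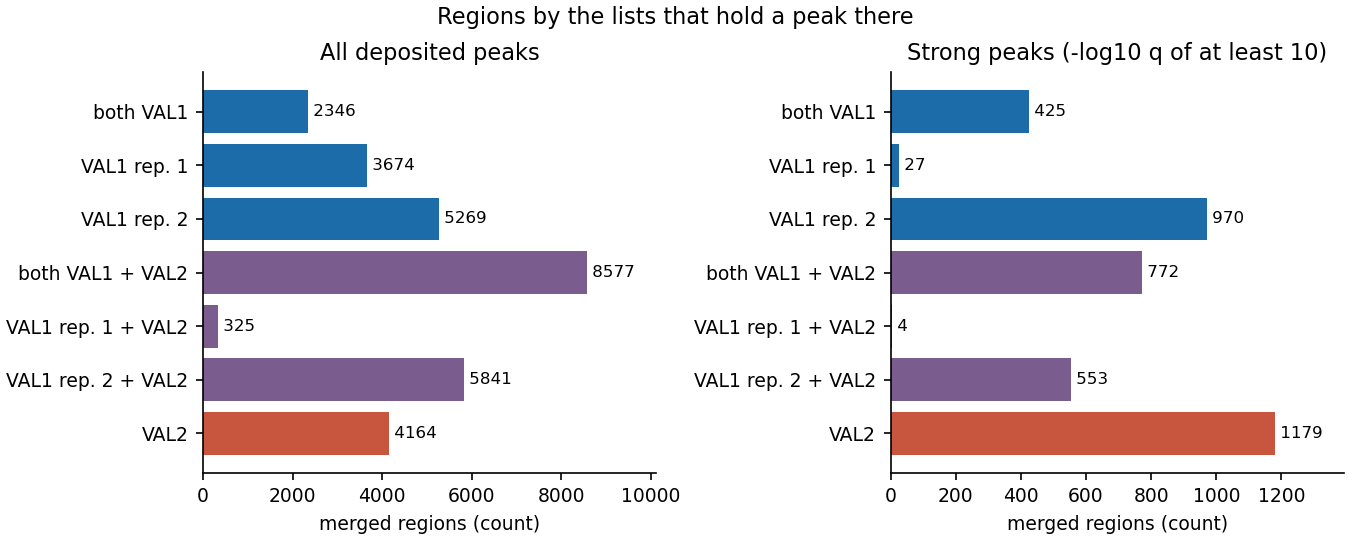
Numbers of merged regions held by each combination of the 3 peak lists, for all deposited peaks and for strong peaks with a −log10 q of at least 10. All 3 lists shared 8577 regions of any strength and 772 regions of strong peaks, and VAL2-GFP alone held 4164 and 1179.

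Strong peaks of one factor were almost never without any peak of the other when either VAL1-GFP list counted, although many lacked a strong one. Of 1213 sites with a strong peak in both VAL1-GFP lists, 9 (0.742%) had no VAL2-GFP peak and 434 (35.8%) had no strong one. Of 2540 strong VAL2-GFP peaks, 29 (1.14%) had no peak in either VAL1-GFP list and 1179 (46.4%) had no strong one in either list. Taken by single lists, 98.7% of them had a peak in VAL1-GFP replicate 2 and 81.6% in replicate 1. Of the strong peaks of VAL1-GFP replicate 2, 98.9% had a peak in replicate 1 and 97.2% in VAL2-GFP. The plot of regions by list combination shows that strong peaks were also unequal within VAL1-GFP, with 970 regions strong in replicate 2 alone and 27 in replicate 1 alone. The strong peaks of VAL1-GFP replicate 2, 2753 in all, were strong in VAL2-GFP in 49.3% of cases and in VAL1-GFP replicate 1 in 43.7%.

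The RY core separated the factors at strong peaks, where presence of a peak in at least 1 VAL1-GFP list did not. The core was sought within 100 bp of the summit. At the 425 regions strong in both VAL1-GFP lists and not in VAL2-GFP it was present in 86.6% (83.0% to 89.7%), and at the 970 regions strong in VAL1-GFP replicate 2 alone in 69.1% (66.1% to 72.0%). At the 1179 regions strong in VAL2-GFP alone it was present in 21.1% (18.8% to 23.6%), against 7.38% of windows 1 kb to each side and 6.73% of the 200 bp before the starts of all protein-coding genes. Regions strong in all 3 lists held it in 93.4% and 93.5% at the VAL1-GFP summits and in 88.6% at the VAL2-GFP summit. Being strong in a single list therefore went with a core in most regions for VAL1-GFP replicate 2 and in few for VAL2-GFP, in lists with similar numbers of strong summits.

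Some other words went the opposite way. The G-box CACGTG lay near 8.47% (6.003% to 11.5%) of the summits strong in both VAL1-GFP lists only and near 7.73% (6.13% to 9.60%) of those strong in VAL1-GFP replicate 2 alone. It lay near 18.3% (16.2% to 20.6%) of the summits strong in VAL2-GFP alone, with 5.66% of all promoters holding it. The W-box core TTGACC, the word of WRKY transcription factors, lay near 6.22% (4.14% to 8.92%) of strong VAL1 sites without a strong VAL2-GFP peak, where the flanks held it in 7.49%. It lay near 16.5% (14.5% to 18.8%) of strong VAL2-GFP peaks without a strong VAL1-GFP peak, where the flanks held it in 9.41% and all promoters in 10.4%. The word GGCCCA, common in plant promoters, was close at strong peaks, at 5.88% and 7.53% for the VAL1-GFP regions and 7.46% for VAL2-GFP alone. AAACCCTA, a rare word, lay near 2.76% (1.44% to 4.78%) of strong VAL1 sites without a strong VAL2-GFP peak, where the flanks held it in 2.30%. It lay near 0.763% (0.350% to 1.44%) of strong VAL2-GFP peaks without a strong VAL1-GFP peak. The flanks there held it in 2.16%, and all promoters in 3.75%. Unlike the RY core, it was thus near the flank share at the VAL1 sites and below it at the VAL2-GFP peaks. GAGAGA was close in these 2 sets, at 20.3% and 18.9%. All words were sought on both strands, and a match describes the sequence and does not show which protein was bound there.

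**Figure D2:**
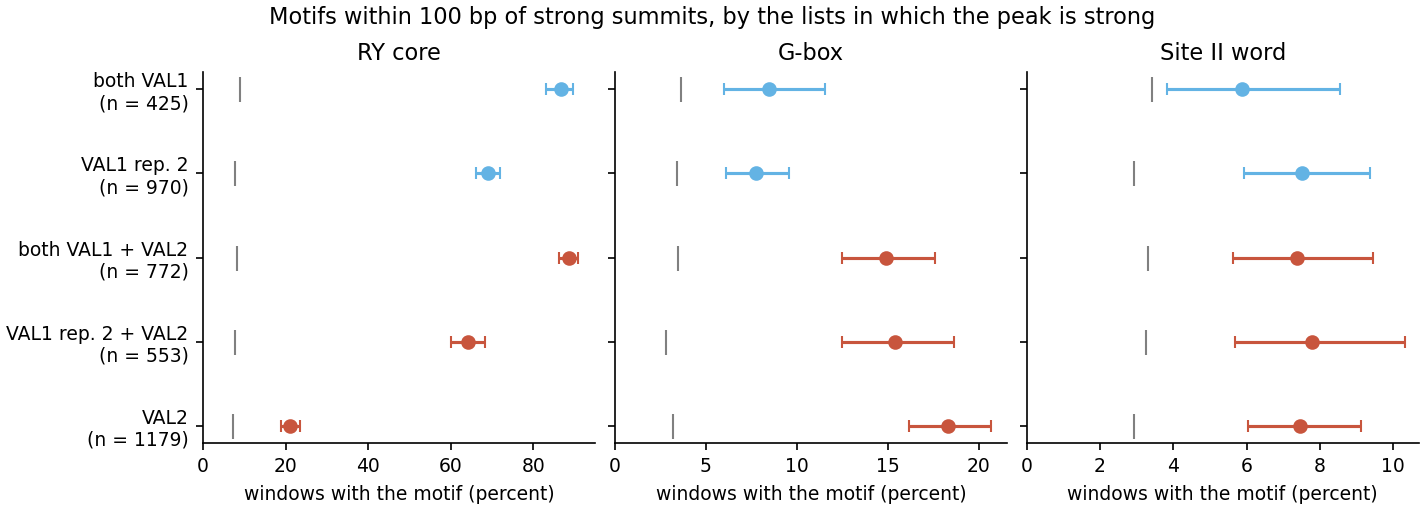
Percent of summit windows (100 bp to each side) that hold the RY core, the G-box or the word GGCCCA, for strong regions grouped by the lists that hold them. Bars are 95% exact binomial intervals, grey ticks are windows 1 kb away, and the RY core is present in 69.1% of regions strong in VAL1-GFP replicate 2 alone and in 21.1% of those strong in VAL2-GFP alone.

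Among all peaks the RY core kept this order, and the other words did not all keep theirs. VAL1 sites had an RY core near 44.1% and 45.99% of the VAL1-GFP summits where VAL2-GFP was also present, and near 34.2% and 37.3% where it was not. VAL2-GFP summits had one at 38.0% of peaks at VAL1 sites, 10.02% of peaks over 1 VAL1-GFP list and 6.20% (5.48% to 6.97%) of peaks over none, where the flanks held it in 7.30%. The matching single-list peaks of VAL1-GFP, found in no other list, had a core at 15.8% in replicate 1 and 16.8% in replicate 2. In the top 20% of VAL2-GFP peaks by pileup, the core was present in 54.3% of 2991 peaks at VAL1 sites, 10.7% of 932 peaks over 1 VAL1-GFP list and 7.58% of 132 peaks over none. Strength was not matched between these classes, and its part was not tested. The longer palindrome TGCATGCA, in which 2 cores overlap, lay near 6.75% and 6.68% of shared VAL1-GFP summits, 5.63% of VAL2-GFP summits at VAL1 sites and 0.144% of VAL2-GFP summits over no VAL1-GFP peak. The word GGCCCA lay near 3.71% and 4.90% of the VAL1-GFP summits of regions in both VAL1-GFP lists only. It lay near 2.56% and 7.02% of those in a single VAL1-GFP list, and near 11.8% of those in VAL2-GFP alone. The flanks of the last held it in 2.64%, but all promoters held it in 12.7%, so that share was not above promoters in general. Among VAL2-GFP summits the G-box was less common at peaks over no VAL1-GFP peak (8.33%) than at VAL1 sites (11.7%).

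Matched summits of the 2 factors lay farther apart than those of the VAL1-GFP replicates. Summits were matched within a VAL1 site extended by 100 bp, which bounds every distance, and no distance expected by chance was computed. The site is drawn from the 2 VAL1-GFP lists, which can favour closeness within that pair. At 8503 sites with a summit from every list, the median distance was 75 bp between VAL1-GFP replicate 1 and VAL2-GFP and 62 bp between VAL1-GFP replicate 2 and VAL2-GFP, against 54 bp between the VAL1-GFP replicates. In the 20% of sites with the best mean rank of pileup (1701 sites) the medians were 29 and 28 bp to VAL2-GFP, against 21 bp within VAL1-GFP. At 769 sites strong in all lists they were 21 and 19 bp, against 15 bp. The VAL2-GFP summit was farther from both VAL1-GFP summits than these were from each other at 3432 sites (40.4%), and lay between them at 2340 (27.5%). Where the VAL1-GFP summits were within 50 bp of each other (4090 sites), the VAL2-GFP summit was within 50 bp of both at 1966 and 200 bp or more from both at 320 (7.82%). All 3 distances share libraries, so they are given as values only.

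**Figure D3:**
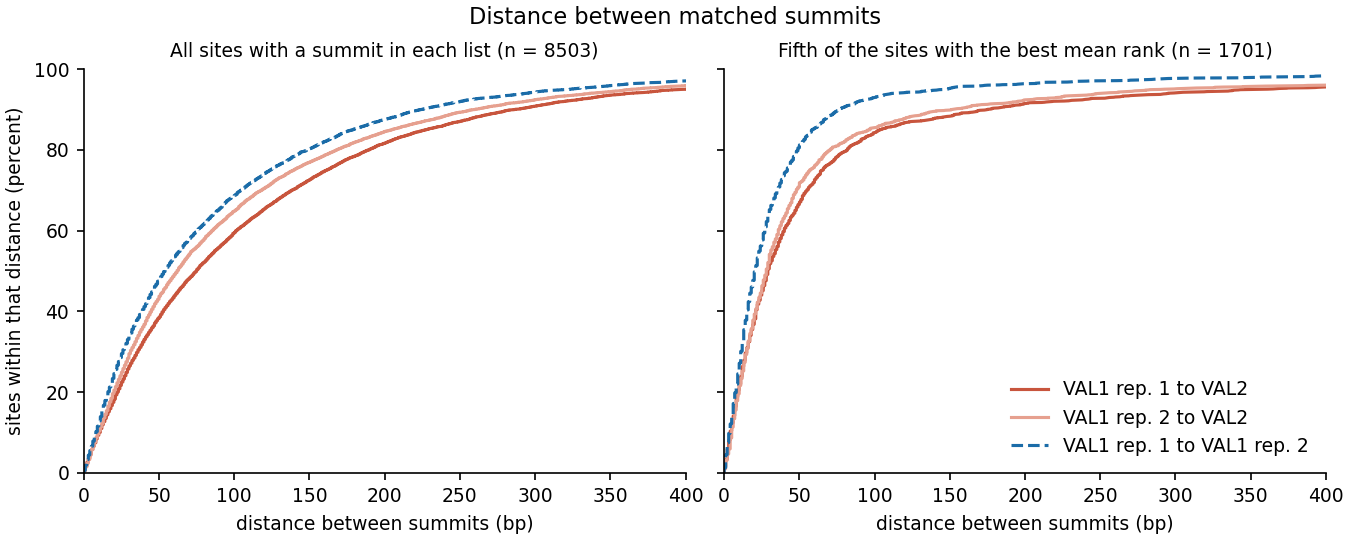
Cumulative share of sites by distance between the summits of each pair of lists (bp), for all 8503 sites and for the 1701 sites with the best mean rank. The curves of VAL1-GFP with VAL2-GFP run below the curve of the VAL1-GFP replicates, with medians of 75 and 62 bp against 54 bp over all sites.

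The distance to the nearest RY core gave a second measure of the same kind. At 2542 sites with a single core, the median distance of the core to the summit was 50.5 and 42.5 bp for VAL1-GFP and 64.5 bp for VAL2-GFP. Among the 473 of these in the best 20% it was 25.5 and 23.5 bp for VAL1-GFP and 31.5 bp for VAL2-GFP. Summits lay 200 bp or more from the only core at 13.8% and 15.5% of the sites for VAL1-GFP and at 22.3% for VAL2-GFP. For each of these the VAL2-GFP value fell outside the VAL1-GFP pair, at sites placed by the VAL1-GFP lists.

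The pileup of VAL1-GFP went with the number of RY cores more steeply than that of VAL2-GFP. Counted around the VAL1-GFP replicate 2 summit, sites without a core (4417) had a median pileup of 32 and 25 in VAL1-GFP and 33 in VAL2-GFP. Sites with 3 or more cores (538) had 64.5 and 60 in VAL1-GFP and 46 in VAL2-GFP. Since that count favours VAL1-GFP, cores were also counted around the VAL2-GFP summit. Sites without a core there (4987) had 33 and 26 in VAL1-GFP and 33 in VAL2-GFP, and sites with 3 or more (456) had 68 and 65 in VAL1-GFP and 49 in VAL2-GFP. The order was thus the same around either summit.

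Strength ranks were shared far more within VAL1-GFP than between the factors. Across the 8503 sites, Spearman's rho of pileup was 0.43 and 0.53 between VAL1-GFP and VAL2-GFP, against 0.77 between the VAL1-GFP replicates. The sites are not independent, and they were selected for a peak in every list, so rho is a description. Of the top 10% of sites in each list, VAL1-GFP replicate 1 and VAL2-GFP shared 429 (51.0% and 51.4% of each) and VAL1-GFP replicate 2 and VAL2-GFP shared 453 (52.6% and 54.3%), against 712 (84.7% and 82.7%) for the VAL1-GFP replicates. The median gap in rank was 20.4% and 17.6% of the number of sites to VAL2-GFP, against 10.4% within VAL1-GFP. VAL2-GFP ranked above both VAL1-GFP lists by more than their own gap at 2025 sites (23.8%) and below both by more than their gap at 2432 (28.6%).

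**Figure D4:**
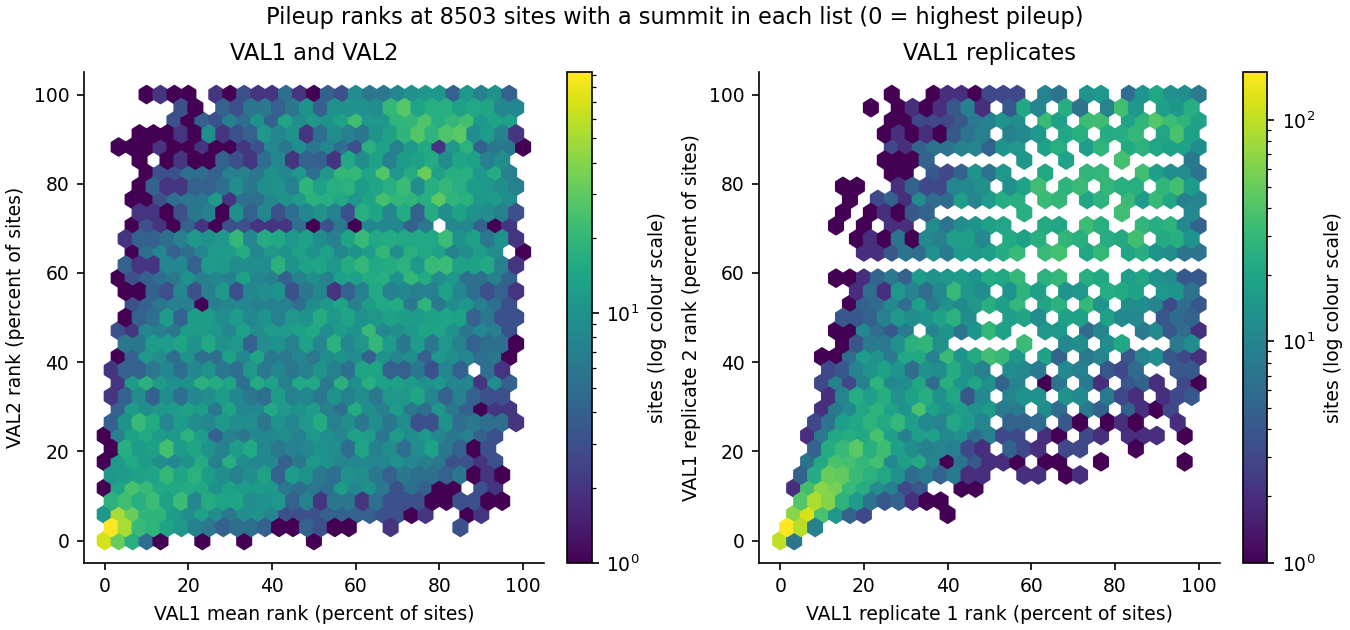
Rank of pileup, in percent of sites, at the 8503 sites with a summit from every list. The mean of the 2 VAL1-GFP ranks is set against VAL2-GFP, and VAL1-GFP replicate 1 against replicate 2. The lowest values are the highest pileups, and brighter cells hold more sites on a log colour scale. The VAL1-GFP replicates crowd along the diagonal (rho 0.77) and the factors spread away from it (rho 0.50), and tied whole-number pileups leave empty bands.

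Sites that ranked higher in VAL2-GFP held fewer RY cores. The sites were split into 5 equal bins, from those where VAL2-GFP ranked lowest relative to VAL1-GFP to those where it ranked highest. The share with a core at the VAL2-GFP summit in these bins was 49.5%, 46.1%, 51.5%, 37.7% and 22.0%. The median rank in VAL1-GFP replicate 2 also differed between the bins, at 3011.5 in the first and 6111.5 in the last, and its part in these shares was not tested. The share with a G-box was 7.41% in the first bin and 14.7% in the last. Ordered by the difference between the 2 VAL1-GFP ranks, the shares of the core were 31.7%, 40.6%, 61.5%, 41.7% and 31.2%, alike at both ends, with median ranks in replicate 2 of 6472 and 3894.

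VAL1-GFP summits lay more often inside genes and VAL2-GFP summits more often upstream of them. The kilobase before a protein-coding gene's start, where no other such gene lies, held 18.9% and 25.7% of VAL1-GFP summits and 32.7% of VAL2-GFP summits, against 14.0% of the genome. The mean difference, VAL1-GFP minus VAL2-GFP, was −10.4 percentage points, with an SD of 4.77 from the 2 VAL1-GFP lists. Coding exons held 32.6% and 18.7% of VAL1-GFP summits and 13.3% of VAL2-GFP summits, against 27.6% of the genome. For coding exons the VAL1-GFP shares lay farther from each other than that of replicate 2 from VAL2-GFP. Upstream of genes these gaps were of similar size. Among strong summits the VAL1-GFP lists were close to each other, with 30.2% and 30.7% upstream and 9.98% and 8.89% in coding exons, against 38.9% and 2.47% for VAL2-GFP. VAL1 sites without VAL2-GFP had 36.4% and 30.9% of their VAL1-GFP summits in coding exons, against 20.5% and 15.1% at shared sites. In regions held by VAL1-GFP replicate 1 alone the share was 52.4%, and in those of replicate 2 alone 19.9%. VAL2-GFP peaks were upstream in 32.4% over no VAL1-GFP peak, 36.4% over 1 VAL1-GFP list and 33.8% at VAL1 sites. They lay outside protein-coding genes and their flanking kilobases in 19.7%, 15.3% and 15.8% in that order.

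Around the gene start the most populated 100 bp bin was 100 to 200 bp after it for VAL1-GFP replicate 1 (6.70% of summits) and 0 to 100 bp after it for replicate 2 (9.15%). For VAL2-GFP it was the 100 bp before the start (9.20%). The median signed distance to the nearest start was 160.5 and 40 bp after it for VAL1-GFP, against −59 bp, which is before it, for VAL2-GFP. The 2 VAL1-GFP medians lay farther from each other than that of replicate 2 from VAL2-GFP. Among strong summits all medians were before the start, at −167 and −118 bp for VAL1-GFP and −317.5 bp for VAL2-GFP. Of all summits, 19.9% and 29.2% lay within 200 bp of a start for VAL1-GFP and 30.03% for VAL2-GFP. Within 200 bp of an end lay 10.1% and 12.3% for VAL1-GFP and 11.8% for VAL2-GFP. At 6320 shared sites in or beside genes, the VAL2-GFP summit lay at a median of −16 and −12 bp from the VAL1-GFP summits, that is upstream, against −6 bp for VAL1-GFP replicate 2 relative to replicate 1. The shift at a given site was small beside the distances between summits.

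**Figure D5:**
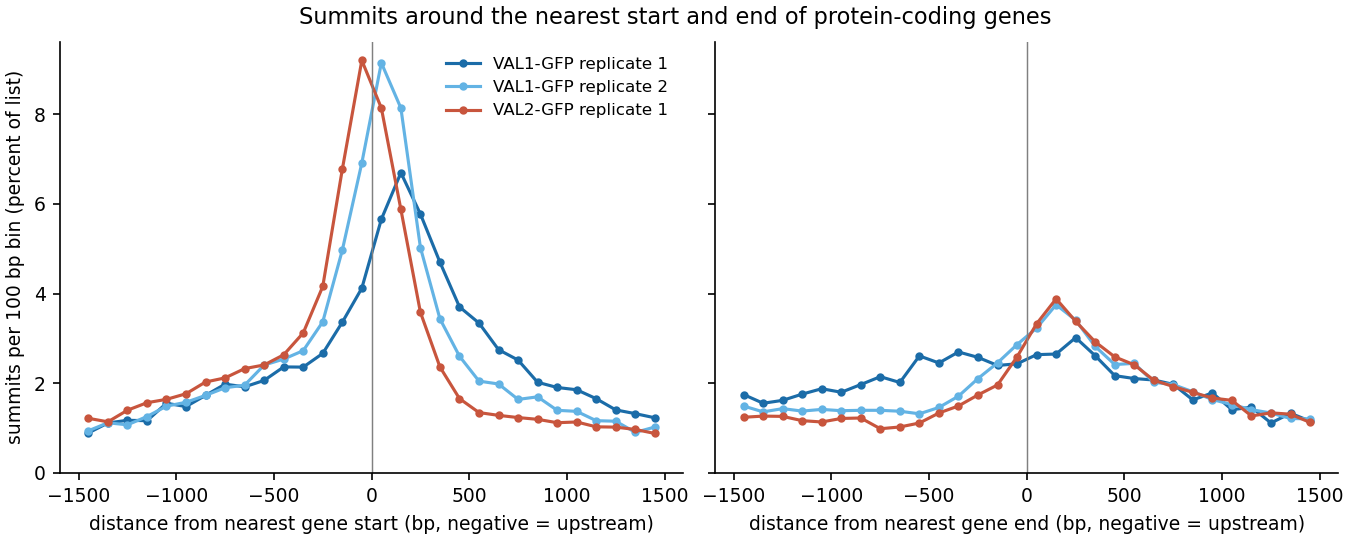
Percent of all summits of each list in 100 bp bins around the nearest protein-coding gene's start and end (bp, positive in the direction of transcription). The VAL1-GFP curves peak after the start at 6.70% and 9.15%, and the VAL2-GFP curve peaks in the 100 bp before it at 9.20%.

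Polycomb chromatin was entered more often by VAL1-GFP summits. H3K27me3 was taken from 2 lists of untransformed Col-0 wild type of the same age. Regions with a peak in both covered 13.8% of the genome and held 27.04% and 17.3% of VAL1-GFP summits, against 13.1% of VAL2-GFP summits. The VAL1-GFP shares lay farther from each other than that of replicate 2 from VAL2-GFP. At VAL1 sites the share was 33.1% and 32.0% without VAL2-GFP, and 21.3% and 20.1% with it. Of VAL2-GFP summits 18.3% lay in such regions at VAL1 sites and 10.7% where no VAL1-GFP peak was found. At strong peaks it was 39.3% for those in both VAL1-GFP lists only, 25.8% for VAL1-GFP replicate 2 alone, 29.4% at the VAL2-GFP summit for all 3 lists and 4.58% for VAL2-GFP alone.

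A gene counted as reached when it, or the kilobase before its start, held a summit (for VAL1, a summit from each list). VAL1 reached 10473 of 27444 protein-coding genes (38.2%) and VAL2 14648 (53.4%), and both reached 8494 (31%), which were 81.1% of the VAL1 genes and 58.0% of the VAL2 genes. VAL1 without VAL2 reached 1979 (7.21%), VAL2 without any VAL1-GFP summit 1587 (5.78%), and VAL2 with a summit in 1 VAL1-GFP list 4567 (16.6%). Single lists reached 43.9% and 62.1% of genes for VAL1-GFP, on either side of the 53.4% for VAL2-GFP. Strong summits reached 910 genes in both VAL1-GFP lists (3.32%) and 1867 in VAL2-GFP (6.8%), and 525 genes in both, 57.7% of the strong VAL1 genes and 28.1% of the strong VAL2 genes.

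Genes with a strong summit of one factor and no summit of the other in the gene or its kilobase were few. For VAL1 there were 8, reached by 7 pairs of summits because AT3G23450 and AT3G23460 share one, and all 8 held an RY core and none a G-box near the VAL1-GFP replicate 2 summit. At 3 of the 8 a VAL2-GFP peak nevertheless overlapped the VAL1-GFP replicate 2 peak, with its summit outside the gene and its kilobase. AT2G05530, a glycine-rich protein gene, had a pileup of 105 and 99 in VAL1-GFP at −977 and −990 bp, and a VAL2-GFP summit of 68 lay 41 bp from the VAL1-GFP replicate 2 summit. AT1G58120 had 56 and 56 in VAL1-GFP, with a VAL2-GFP summit of 47 at 280 bp. FPF1, which promotes flowering, had 74 and 62 in VAL1-GFP, with a VAL2-GFP summit of 25 at 628 bp. The other 5, with no VAL2-GFP peak there, were AT1G17010, an oxygenase gene, AT1G20940, an F-box gene, AT4G29620, annotated as a cytidine deaminase family gene, and the pair AT3G23450 and AT3G23460. For VAL2 there were 16, of which 2 held an RY core and 3 a G-box, with pileups of 45 to 67. A VAL1-GFP peak overlapped the VAL2-GFP peak at 6 of them, which were ARA-2, PAPP2C, DIS2, AT3G26395, HB16 and AT5G65400, and at the other 10 none did. The 16 included AP1, a MADS-box gene of floral meristem identity (pileup 53, at −136 bp from the start), ARF2, an auxin response factor (55), HB16, a homeobox factor (50), ARA-2, a small GTPase (59), and ECA4, an endomembrane calcium pump (50). Also among the 16 were WAKL4, PAPP2C, DIS2, TRM9, RDUF2, AT3G13950, AT3G26395, AT3G55960, AT4G14490, AT5G65400 and AT5G65440.

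The strongest shared sites were chosen by mean pileup rank over all 3 lists, so a high rank in each was fixed by the choice. An intron of NAC074, which encodes a NAC transcription factor, had a pileup of 330 and 331 in VAL1-GFP and 285 in VAL2-GFP, with fold enrichments of 18.7 and 35.7 against 19.5. The intron of CKX5, which encodes a cytokinin-degrading oxidase, had 269 and 266 in VAL1-GFP and 232 in VAL2-GFP. The highest fold enrichment of each list was at the intergenic site on chromosome 1 at 12706852, with 18.9 and 36.4 in VAL1-GFP and 24.0 in VAL2-GFP. Its 3 summits lay within 6 bp of each other, beside the core printed above. The intergenic site on chromosome 2 at 16820854 had a pileup of 327 and 351 in VAL1-GFP and 308 in VAL2-GFP, with summits within 3 bp. Of the 10 strongest, 6 held an RY core. The other 4 lay within 10 kb of a nuclear ribosomal RNA gene, had fold enrichments of 1.21 to 2.53 in VAL1-GFP and 1.72 to 2.07 in VAL2-GFP, and had no core. Reads of ribosomal DNA come from many near-identical copies, so the values at these 4 are uncertain.

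The strongest VAL1 sites without a VAL2-GFP peak held an RY core in 8 of 10. After 2 sites beside ribosomal RNA genes on chromosome 3, the leading one was at AT4G19520, a disease resistance gene, with a pileup of 69 and 55 and 4 cores. AT5G35660, a glycine-rich protein gene, had 53 and 66. AT1G04500, a CCT-motif gene, had 57 and 55 without a core. The 10 highest VAL2-GFP peaks over no VAL1-GFP peak held a core in 1. Of them, 9 had a fold enrichment of 1.35 to 2.02, 2 beside AT3G41762 and within 10 kb of a ribosomal RNA gene and 7 on chromosome 2 between 3.27 and 3.49 Mb. That stretch of chromosome 2 is known for a large insertion of mitochondrial DNA, so its reads cannot be told from those of the organelle. The remaining peak, in an intron of AT4G13440, a calcium-binding protein gene, had a pileup of 77 and a fold enrichment of 4.15.

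Strong peaks without a strong peak of the other factor were ranked by −log10 q. They were chosen for being strong in one factor and not in the other, so the direction of their values was fixed by the choice. The 10 leading ones for VAL1 held an RY core in 10 of 10. The site on chromosome 1 at 25221915 had a pileup of 151 and 122 in VAL1-GFP and 46 in VAL2-GFP. LEA, a dehydrin gene of the late embryogenesis class, had 99 and 113 in VAL1-GFP and 40 in VAL2-GFP, with summits at −41 to −88 bp from its start. AT5G41780 had 117 and 109 in VAL1-GFP and 44 in VAL2-GFP. AT2G16730, a glycosyl hydrolase gene, had 116 and 99 in VAL1-GFP and 43 in VAL2-GFP. APL1, a large subunit of the starch enzyme ADP-glucose pyrophosphorylase, had 101 and 97 in VAL1-GFP and 50 in VAL2-GFP.

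The 10 leading strong VAL2-GFP peaks without a strong VAL1-GFP peak held an RY core in 4, and none lay in wild-type H3K27me3. AT5G38200, in whose 3′ UTR the summit lay, had a pileup of 38 and 28 in VAL1-GFP and 136 in VAL2-GFP. The site on chromosome 3 at 12453996 had no peak in VAL1-GFP replicate 1, 27 in replicate 2 and 131 in VAL2-GFP. ERO1, which drives disulfide bond formation in the endoplasmic reticulum, had 38 and 39 in VAL1-GFP and 104 in VAL2-GFP, at −77 bp from its start. AT1G33590, a leucine-rich repeat gene, had 52 and 38 in VAL1-GFP and 101 in VAL2-GFP. BTI1, a reticulon-like gene, had no peak in VAL1-GFP replicate 1, 26 in replicate 2 and 88 in VAL2-GFP.

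Sites with steady VAL1-GFP ranks showed the same split when taken by rank. The 5 whose rank was most lowered in VAL2-GFP all held an RY core. AT2G05540, a glycine-rich protein gene, had a pileup of 99 and 92 in VAL1-GFP and 24 in VAL2-GFP, although the summits lay within 40 bp. PRT1, a ubiquitin ligase of the N-end rule pathway, had 80 and 68 in VAL1-GFP and 24 in VAL2-GFP. AT2G05310, AT2G26450 and AT4G25740 had 54 to 65 and 47 to 57 in VAL1-GFP and 18 to 20 in VAL2-GFP. The 5 whose rank was most raised in VAL2-GFP held a core in 2. AT2G33710, annotated with an integrase-type DNA-binding domain, had 26 and 17 in VAL1-GFP and 59 in VAL2-GFP, and the kinase gene AT5G01850 had 27 and 18 in VAL1-GFP and 62 in VAL2-GFP. These sites were picked for the difference, so it is no test of one.

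At some strong sites VAL2-GFP had its highest summit elsewhere under the same peak. Upstream of PYL5, an abscisic acid receptor gene, the VAL1-GFP summits lay 9 bp apart, at −780 and −789 bp from the start, and the VAL2-GFP summit at −540 bp. The pileup there was 52 and 58 in VAL1-GFP and 96 in VAL2-GFP. At AT5G58620, a zinc finger gene, the VAL1-GFP summits were at −793 and −779 bp from the start and the VAL2-GFP summit at −156 bp. At AT1G54740, a FANTASTIC FOUR-like gene, they were at 851 and 896 bp after the start for VAL1-GFP, and at −152 bp for VAL2-GFP. Of the 10 strongest such sites, 9 held an RY core near the VAL1-GFP summit, as at PYL5, where 1 core lay 12 bp from it.

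Seed storage and oil body genes were reached by VAL1 in 11 of 12 and by VAL2 in 8 of 12, against 38.2% and 53.4% of all genes. The 8494 genes reached by both were ranked by pileup within each list. The ranked summit could lie anywhere in the gene or its kilobase, so the summits of the factors at a gene can be far apart. Both VAL1-GFP ranks were higher than the VAL2-GFP rank at 7 of the 8 shared storage and oil body genes, against 40.2% of all 8494, and OLEO1 was the exception. By fold enrichment both VAL1-GFP values were higher at 7 of the 8, against 29.8% of all, and the exception was CRA1 with 2.15 and 3.69 in VAL1-GFP and 2.16 in VAL2-GFP. SESA1, which encodes a 2S albumin, had a pileup of 154 and 136 in VAL1-GFP and 109 in VAL2-GFP. SESA3, its neighbour in the same cluster, had 133 and 130 in VAL1-GFP and 77 in VAL2-GFP. OLEO1, an oleosin of oil bodies, had 159 and 162 in VAL1-GFP and 134 in VAL2-GFP, with summits at −96 to −123 bp from its start and ranks of 46 and 46.5 against 41.5. CRA1 and CRU3, cruciferin genes, had weak peaks, with 38 to 44 and 31 to 34 in VAL1-GFP and 28 to 30 in VAL2-GFP. SESA5, CRU2 and OLEO4 had summits in both VAL1-GFP lists only, at pileups of 19 to 51. OLEO2 had one in replicate 1 alone.

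Of 8 seed maturation regulators, each factor reached the same 4, a share close to the 53.4% of all genes for VAL2 and above the 38.2% for VAL1. At all 4 both VAL1-GFP ranks were higher than the VAL2-GFP rank, and at 3 of the 4 so were both fold enrichments, with ABI5 the exception at 2.105 and 3.70 in VAL1-GFP and 2.39 in VAL2-GFP. DOG1, a regulator of seed dormancy, had a pileup of 173 and 185 in VAL1-GFP and 85 in VAL2-GFP. ABI3, a B3 activator of maturation, had 134 and 138 in VAL1-GFP and 81 in VAL2-GFP, with summits 3501 to 3512 bp after the start. AGL15, a MADS-box gene of embryos, had 128 and 145 in VAL1-GFP and 90 in VAL2-GFP, with fold enrichments of 5.72 and 13.5 against 5.71. ABI5, a bZIP factor of abscisic acid signalling, had 41 and 39 in VAL1-GFP and 37 in VAL2-GFP, with the VAL2-GFP summit inside the gene and the VAL1-GFP summits upstream. LEC2 and FUS3, the other B3 activators, had no summit in any list. LEC1 and L1L had one in 1 VAL1-GFP list.

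The housekeeping genes were reached by VAL1 in 2 of 8 and by VAL2 in 6 of 8, against 38.2% and 53.4% of all genes. The single VAL1-GFP lists reached 3 and 6 of the 8, so VAL1-GFP replicate 2 alone had as many as VAL2-GFP. UBQ10, a polyubiquitin gene, had a pileup of 32 and 24 in VAL1-GFP and 56 in VAL2-GFP. GAPC1, a glycolytic dehydrogenase gene, had 39 and 31 in VAL1-GFP and 63 in VAL2-GFP. ACT2, an actin gene, had no summit in VAL1-GFP replicate 1, 24 in replicate 2 and 66 in VAL2-GFP. TUB2 and TIP41L also had a summit in VAL1-GFP replicate 2 beside that of VAL2-GFP, and SAND in VAL2-GFP alone. EF1A had a summit in VAL1-GFP replicate 2 alone, and PP2AA3 in replicate 1 alone. At UBQ10 and GAPC1, the 2 reached by both, the VAL2-GFP rank was higher than both VAL1-GFP ranks, as at 40.03% of all genes reached by both. The UBQ10, GAPC1 and ACT2 summits of VAL2-GFP lay at −25, −160 and 95 bp from the start. The VAL1-GFP summits of UBQ10 lay elsewhere, at 2311 and 2187 bp after the start.

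Among developmental genes, the flowering time list was reached by VAL1 in 5 of 12 and by VAL2 in 8 of 12, where 38.2% and 53.4% of all genes were. Floral organ identity genes were reached in 4 and 5 of 12, meristem and KNOX genes in 5 and 5 of 10, phase change genes in 4 and 4 of 5 and auxin genes in 6 and 6 of 10, VAL1 before VAL2. The phase change counts, from the shortest list, lay farthest from the shares over all genes. That list includes the microRNA genes MIR156A and MIR156C, and the shares are over protein-coding genes only. Of microRNA genes, 17.2% were reached by VAL1 and 26.7% by VAL2. SOC1, a floral integrator, had a pileup of 57 and 37 in VAL1-GFP and 45 in VAL2-GFP. FLC, the floral repressor, had 35 and 30 in VAL1-GFP and 26 in VAL2-GFP, near its 3′ end. CUC1, which sets organ boundaries, had 55 and 50 in VAL1-GFP and 56 in VAL2-GFP.

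The developmental genes reached by both did not share 1 direction by rank. Both VAL1-GFP ranks were higher at 2 of 5 flowering time genes (FLC and CO) and the VAL2-GFP rank was higher than both at 1, TSF. TSF had 25 and 21 in VAL1-GFP, at 1481 and 1406 bp after the start, and 31 in VAL2-GFP, at −470 bp. SHP1, a MADS-box gene of fruit opening, had 44 and 51 in VAL1-GFP and 26 in VAL2-GFP, and PI, a petal and stamen identity gene, had 24 and 22 in VAL1-GFP and 31 in VAL2-GFP. Of 5 auxin genes the VAL1-GFP ranks were both higher at YUC4 and PIN4, and the VAL2-GFP rank was higher than both at PIN3 and PIN7, auxin exporter genes. PIN7 had 36 and 28 in VAL1-GFP, at 726 and 331 bp after the start, and 39 in VAL2-GFP, at 2228 bp after it. MIR156A and MIR156C, microRNA genes of the juvenile phase, had 42 and 29, and 44 and 29, in VAL1-GFP, and 33 and 36 in VAL2-GFP.

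Polycomb and VAL genes were reached by each factor in 9 of 17, close to the 53.4% of all genes for VAL2 and above the 38.2% for VAL1. Of the 8 reached by both, the VAL1-GFP ranks were both higher at 3, the VAL2-GFP rank was higher than both at 3, and at 2 it lay between. BMI1A, a Polycomb ring-finger gene, had a pileup of 65 and 64 in VAL1-GFP and 31 in VAL2-GFP. EMF1, a Polycomb-associated gene, had 31 and 23 in VAL1-GFP and 45 in VAL2-GFP, at different positions. The VAL1 gene itself had 332 and 336 in VAL1-GFP and 96 in VAL2-GFP, with fold enrichments of 5.17 and 10.5 against 6.09. The VAL2 gene had no summit in VAL1-GFP replicate 1, 23 in replicate 2 and 171 in VAL2-GFP, the last with a fold enrichment of 2.27. Each fusion line carries an added copy of its own VAL gene, so reads of the endogenous gene and of the transgene cannot be told apart in it.

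Gene families, taken by words in the annotation, mostly fell between the VAL1-GFP lists or below both. Of 20 families, the VAL2-GFP share lay within the VAL1-GFP pair in 10, below both in 8 and above both in 2. B3 genes were reached in 46.6% and 47.4% by VAL1-GFP and in 28.4% by VAL2-GFP (116 genes), against 43.9%, 62.1% and 53.4% of all genes in the same order. Auxin-related genes were reached in 61.4% and 72.9% by VAL1-GFP and in 57.8% by VAL2-GFP (166 genes). WRKY genes, which respond to pathogens and stress, were reached in 48.6% and 68.1% by VAL1-GFP and in 76.4% by VAL2-GFP (72 genes). Strong summits reached 6.94% of the WRKY genes for VAL1 and 23.6% for VAL2, and of 25 ethylene response factor genes 4% for VAL1 and 32% for VAL2, against 3.32% and 6.8% of all genes. Basic helix-loop-helix genes were reached in 57.9% and 74.4% by VAL1-GFP and in 75.2% by VAL2-GFP, with strong summits at 7.52% for VAL1 and 16.5% for VAL2. The strong VAL1 call needs both lists, and the strong VAL2 call 1.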

How the data were processed

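Peaks were called with MACS2 against TAIR10, per the submitters' processing notes, which also name TopHat2 2.1.1, Cufflinks 2.2.1 and Cuffdiff. The sources used here do not give the MACS2 version or options, the ChIP aligner or the control behind each list. In the deposited lists the pileup is a signal of read coverage, fold enrichment is a ratio over local background, and significance is given as −log10 p and −log10 q. Both significance columns have a broken header and were read in MACS2's usual order, in which −log10 q exceeded −log10 p at 0 summits.

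Overlapping peaks of a list were merged, and 1 shared base counted as overlap. Summits were matched within a site extended by 100 bp, taking the highest pileup of each list, which left 990 shared sites without a summit of every list. Positions are 1-based. Genes, 27444 of them protein-coding, and sequences came from TAIR10.1, and all 94 genes of the 9 lists matched. Words were sought on both strands within 100 bp of a summit. Intervals are 95% Clopper-Pearson. Python 3.11.15, numpy 2.4.6, pandas 2.3.3 and scipy 1.17.1 were used, and the overlap, distance and word counts were tested on simulated data.

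Named sites are the 10 strongest of each class by mean pileup rank, or VAL2-GFP pileup where VAL1 is absent, the 5 largest rank gains and losses, and the members of the lists. The comparisons of strong peaks by list combination were added after the data were seen, as were the choice of the named strong sites and of the W-box and the ranking of genes by pileup within each list. The comparison, the lists and the families were chosen with earlier results of these data known. Alternatives were the q threshold, equal numbers of peaks, the overlap, the gene window, the word window and leaving out each VAL1-GFP list.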

Additional observations from a re-analysis of the deposited data

How the results depend on the processing

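No paired analysis was possible because no result comes from a test and 1 VAL2-GFP list was used. The share of VAL1 sites with a VAL2-GFP peak (74.2%) was 75.7% with a −log10 q of at least 2, 64.2% with at least 10, 72.9% with equal numbers of peaks, 71.4% with overlap of at least 50% of the shorter interval, and 59.6% to 67.2% when either VAL1-GFP replicate was left out. The share of VAL2-GFP peaks at a VAL1 site (43.8%) was 31.9%, 30.7%, 45.5% and 39.0% in that order, and 46.3% to 77.6% without a VAL1-GFP replicate. The median distance between the factors' summits (68.5 bp) was 46 bp and 20 bp at the q thresholds of 2 and 10, and 79 to 82 bp without a replicate. The rank correlation (0.50) was 0.59 at the threshold of 10 and 0.44 to 0.47 without a replicate. Genes reached by both (8494) numbered 3270 and 525 at the thresholds, and 8865 to 12690 without a replicate. Genes reached by VAL1 without VAL2 (1979) numbered 979 and 385, and 3184 to 4366. Genes reached by VAL2 without VAL1 (1587) numbered 2447 and 923, and 1958 to 5783. The RY core at shared VAL2-GFP summits (38.0%) was 57.3% and 88.5% at the thresholds, 40.9% with equal numbers, 27.6% within 50 bp, 54.3% in the top 20% by pileup and 25.8% to 36.6% without a replicate. At VAL2-GFP peaks without VAL1 (6.20%) it was 7.14%, 21.1%, 3.22% within 50 bp, 7.58% in the top 20% and 6.69% to 8.46%. The upstream difference (−10.4 percentage points) ran from −7.07 to −13.8 without a replicate. Of the values tried, 38 moved beyond their interval, the spread of the VAL1-GFP lists or 1.5 times the count, and 32 stayed within. The upstream difference was among the 32 at every setting. Its limit was the SD of the same 2 VAL1-GFP lists, which leaving out 1 of them cannot exceed. For that setting the outcome was thus fixed in advance. The causes were not tested. Read depth and the single VAL2-GFP list limit every comparison.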

Other observations

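Genes for noncoding RNAs, which the report does not cover, showed how far the rule of 2 lists against 1 sets a count. Transfer RNA genes (625) were reached by VAL1 in 13.9% and by VAL2 in 32.5%, but the single VAL1-GFP lists reached 17.3% and 32.5%. Small nucleolar RNA genes (287), which guide RNA modification, were reached by the VAL1-GFP lists in 23.3% and 57.5% and by VAL2-GFP in 39.4%. MicroRNA genes (326) were reached by the VAL1-GFP lists in 23.0% and 34.4% and by VAL2-GFP in 26.7%, and long noncoding RNA genes (3480) in 27.7% and 39.8% by VAL1-GFP and in 36.8% by VAL2-GFP. In each of these 4 classes the VAL2-GFP share lay within the VAL1-GFP pair, its upper end included.

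Genes whose products serve protein synthesis and chromatin were among those where the VAL1-GFP lists differed most. Ribosomal protein genes (344) were reached in 23.3% and 50.9% by VAL1-GFP and in 40.7% by VAL2-GFP. Genes annotated with histone (109) were reached in 39.4% and 72.5% by VAL1-GFP and in 63.3% by VAL2-GFP. Light harvesting and photosystem genes (55) were reached in 70.9% and 81.8% by VAL1-GFP and in 78.2% by VAL2-GFP.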
